A study of Mus musculus with 12 samples.

Results

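Growth factor receptors of the ErbB, fibroblast growth factor (FGF) and insulin families and the insulin receptor substrates were followed in a map of histone H3 trimethylated at lysine 4 (H3K4me3), a mark of active promoters, in adult mouse cardiomyocytes (CMs), the contracting muscle cells of the heart. Members were all H3K4me3 peaks whose gene name is Erbb2, Erbb3, Erbb4, Egfr, Igf1r, Insr, Irs1, Irs2, Fgfr1 or Fgfr2, together with a peak on chromosome 7 that carries no gene name and lies inside the annotated span of Fgfr2. This gave 12 of 15848 peaks, 11 of them with a name, and each of the 10 genes had at least 1. All 11 passed the filter of a mean normalized count of at least 10. The peak without gene name was included with its difference between the genotypes known, so its values are a description without a test.

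The study compared 3 H3K4me3 libraries of Cpt1bcKO mice with 3 of CtrlCre mice to ask where the mark changes once CMs can no longer oxidize fatty acids. Cpt1bcKO animals carry αMHC-Cre and Cpt1b fl/fl, so that Cpt1b, the muscle enzyme that passes long-chain fatty acids into mitochondria, was lost in CMs from embryonic stages on, whereas CtrlCre animals carry αMHC-Cre without floxed Cpt1b. Both genotypes therefore express Cre under the αMHC promoter, which is active in CMs, and the labels give the animals as adult without an age. Chromatin came from CM nuclei sorted by flow cytometry, for which the methods name the centrosomal protein PCM1 as the marker, and input libraries of both genotypes were not used here.

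ErbB, FGF, insulin and insulin-like growth factor receptors are receptor tyrosine kinases. Ligand binding activates the kinase domains, which phosphorylate tyrosines, and adaptors such as the insulin receptor substrates pass the signal to the PI3K–AKT and RAS–MAPK cascades. In the heart, neuregulin acting through ErbB4 and ErbB2 is known for its role in CM growth and survival, and insulin and IGF1 for their control of glucose uptake and of heart size.

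Total counts in peaks ranged from 763133 in CtrlCre replicate 2 to 2766416 in Cpt1bcKO replicate 2, and log2 values of all pairs of libraries correlated across peaks at 0.914 to 0.967. At the peak of the targeted gene Cpt1b the CtrlCre libraries gave 428, 407 and 436 normalized counts and the Cpt1bcKO libraries 572, 689 and 568, which measures the mark and not the deletion. All 10 CM markers on the list had a tested peak, with summed values of 8477 to 10118 in CtrlCre and 6723 to 9392 in Cpt1bcKO libraries, and 8 of the 10 were lower in Cpt1bcKO without a call. Of 30 markers of fibroblasts, endothelium, smooth muscle and pericytes, immune cells and Schwann cells, 5 had a tested peak (Pdgfra, Kdr, Acta2, Myh11 and Cd14), whereas Col1a1, Pecam1, Cdh5 and Ptprc had none. Their summed values were 253 to 331 in CtrlCre and 146 to 195 in Cpt1bcKO libraries, all 5 were lower in Cpt1bcKO and 1, Acta2, was called. Without Acta2, the sums were 156 to 212 and 132 to 171. Fewer nuclei of a cell type and less of the mark per nucleus cannot be told apart in such pooled chromatin.

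The promoters of Irs1 and Irs2 are shown first. The Irs1 peak was the only named one called between the genotypes, and Irs2 is its paralog. The centre of the peak without gene name is added because that peak holds no annotated transcript start. Irs1 and Irs2 sequences are the 250 bases before the RefSeq start (GRCm38.p6, minus strand), at chr1:82291440-82291689 and chr8:11008930-11009179. The third stretch is chr7:132070501-132070800 (plus strand), 300 bases around the summit of that peak, read from the GRCm38 reference. Capitals mark the E box CACGTG, a palindrome and thus the same on both strands, to which basic helix-loop-helix factors are known to bind.
Irs1: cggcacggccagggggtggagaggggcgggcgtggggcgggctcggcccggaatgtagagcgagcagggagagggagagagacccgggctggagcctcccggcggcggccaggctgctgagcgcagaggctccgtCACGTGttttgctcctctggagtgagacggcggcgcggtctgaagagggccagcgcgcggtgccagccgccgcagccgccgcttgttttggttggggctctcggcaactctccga
Irs2: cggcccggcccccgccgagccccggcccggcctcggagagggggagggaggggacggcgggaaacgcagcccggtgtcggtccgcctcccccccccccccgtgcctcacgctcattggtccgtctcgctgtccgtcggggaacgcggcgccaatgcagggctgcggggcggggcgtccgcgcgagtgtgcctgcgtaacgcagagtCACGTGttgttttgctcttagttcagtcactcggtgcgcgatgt
Peak without gene name: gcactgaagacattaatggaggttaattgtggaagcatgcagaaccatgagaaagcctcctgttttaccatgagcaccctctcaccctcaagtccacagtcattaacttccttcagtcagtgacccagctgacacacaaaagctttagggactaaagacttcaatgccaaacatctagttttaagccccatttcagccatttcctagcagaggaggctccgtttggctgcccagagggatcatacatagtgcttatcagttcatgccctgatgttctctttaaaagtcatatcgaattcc

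An E box stood 115 bases before the start of Irs1 and 44 bases before that of Irs2. It sat in both promoters in a shared run of 10 bases. These sequences had no longer run in common, but another of the same length, tgttttgctc, did not hold the E box. Promoters of 7 of the 10 genes were found in the RefSeq table (Erbb2, Erbb4, Egfr, Igf1r, Irs1, Irs2 and Fgfr2), and in windows from 250 bases before to 50 after the start, an E box was present in 3 of them, Irs1, Irs2 and Fgfr2, against 7.15% of all 32851 promoters. The Fgfr2 window (chr7:130266759-130267058), unlike the others, overlapped no H3K4me3 peak. A peak without gene name over the start of the principal Fgfr2 transcripts ends just before it, at position 130266722. The GC box GGGCGG, searched on both strands, had 2 matches in Irs1 and in Igf1r and 1 in Irs2 and in Egfr, that is in 4 of 7 promoters against 35.7% of all. The cAMP response motif TGACG, which in Irs1 overlaps the E box, was present in Irs1 and Erbb2 (20.8% of all promoters), the CCAAT box in Irs2 and Erbb2 (37.4%), and neither TATAAA (13.6%) nor the forkhead motif GTAAACA (3.65%) in any of the 7. These letters are descriptions of the sequence and not of a bound factor. Guanine and cytosine made up 71.3% of the Irs1 window and 72% of that of Irs2, with 28 and 41 CpG dinucleotides, against medians of 52.7% and 7 over all promoters. By contrast, the centre of the peak without gene name had 45% and 2 CpG dinucleotides and held none of the 6 motifs.

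Of the adaptors that dock at the insulin and IGF1 receptors, Irs1 had less of the mark in Cpt1bcKO CMs, while Irs2, with a log2 difference of the opposite sign, did not pass the test. Of the 11 named peaks only Irs1 passed an adjusted p under 0.05 in limma, against 1.82% of 15039 tested peaks called lower, 1.11% called higher and 2.93% called in either direction. At an unadjusted p under 0.05, Irs1 and Irs2 were counted, that is 2 of 11 against 12.8% of all tested peaks. The same 2 peaks were those whose genotypes did not overlap, against 16.3% of all tested peaks. The median log2 difference of the 11 peaks was -0.067, and that of all tested peaks 0.0057.

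Irs1, the first described insulin receptor substrate, lay under a peak of 10378 bases (chr1:82282852-82293230, mm10) that ran from 1814 bases upstream to 8564 bases downstream of the transcript start with 35.6% of its length in coding sequence. Its normalized counts were 762, 779 and 627 in CtrlCre and 537, 519 and 493 in Cpt1bcKO replicates 1 to 3. Every Cpt1bcKO library was below every CtrlCre library, with means of 516 ± 22.1 and 723 ± 83.3 (SD, n = 3 each). The log2 difference was -0.48 (SE 0.10), a fold of 0.718, with an adjusted p of 0.0100 in limma. The call was lost without CtrlCre replicate 1, where the log2 difference was -0.44 and the adjusted p in limma 0.104. Counting error amounted to between 3.32% and 5.46% of the value per library.

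Irs2, which carries much of the insulin signal in liver and in the beta cells of the pancreas, had a peak of 9016 bases (chr8:11001158-11010174), 43.9% of it in coding sequence. The peak also holds the start of the antisense gene 9530052E02Rik, and ChIP–seq reads cannot be divided between both genes. Values were 377, 423 and 387 in CtrlCre and 500, 512 and 477 in Cpt1bcKO replicates 1 to 3, so that every Cpt1bcKO library lay above every CtrlCre library. Means were 396 ± 24.2 and 496 ± 17.8 normalized counts (SD, n = 3 each). The log2 difference of 0.33 (SE 0.094) did not pass the threshold, with an adjusted p of 0.0620 in limma. It passed with quantile normalization (adjusted p = 0.0445), with limma-voom on recovered counts (0.0397) and without CtrlCre replicate 2, the shallowest library (0.0441). In the opposite direction, the adjusted p in limma rose to 0.292 without CtrlCre replicate 1, 0.232 without Cpt1bcKO replicate 1, 0.165 without Cpt1bcKO replicate 2, 0.152 without CtrlCre replicate 3 and 0.156 in the fit with a replicate block.

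Set against each other within a library, Irs1 exceeded Irs2 in CtrlCre CMs by factors of 2.02, 1.84 and 1.62, whereas in Cpt1bcKO CMs the factors were 1.07, 1.01 and 1.03. The log2 ratio of both peaks was 0.86 ± 0.16 in CtrlCre and 0.057 ± 0.042 in Cpt1bcKO libraries (SD, n = 3 each), a difference of -0.81. An exact two-sided permutation test gave p = 0.1, the smallest that 3 against 3 libraries allow. With Irs1 lower and Irs2 higher in every Cpt1bcKO library, this outcome was fixed in advance. The test thus adds no evidence to the values of the separate peaks. A ratio within a library does not depend on its depth, and this ratio was chosen after the values had been seen. The plot of Irs1 against Irs2 shows the groups of libraries apart.

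**Figure D1:**
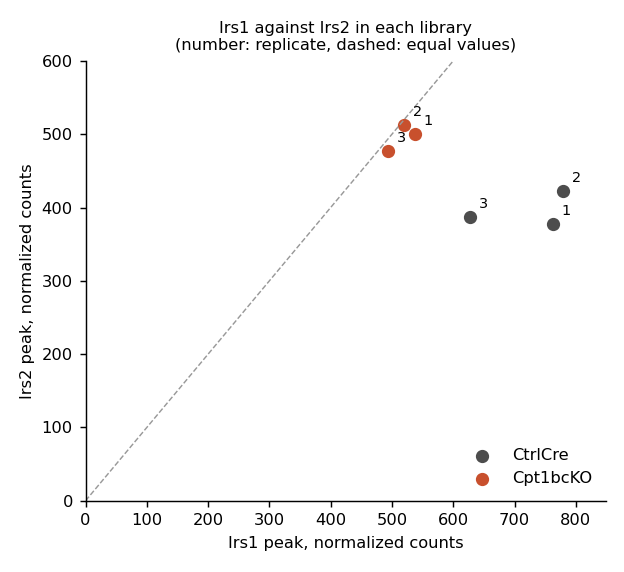
Normalized counts of the Irs1 peak (horizontal axis) and the Irs2 peak (vertical axis) in each of the 6 libraries, with replicate numbers beside the points and a dashed line at equal values. The 3 Cpt1bcKO libraries sit next to the line at ratios of 1.01 to 1.07, and the 3 CtrlCre libraries lie to its right at ratios of 1.62 to 2.02.

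The receptors to which these adaptors bind showed no such difference. Insr, the insulin receptor, had 312, 384 and 316 normalized counts in CtrlCre and 332, 339 and 331 in Cpt1bcKO libraries over a peak of 5598 bases (chr8:3276420-3282018). CtrlCre libraries enclosed the Cpt1bcKO libraries on both sides, and the log2 difference was -0.0078 (SE 0.099, 95% interval -0.21 to 0.20). Igf1r, the receptor of IGF1, had 357, 293 and 343 in CtrlCre and 367, 323 and 351 in Cpt1bcKO libraries (chr7:67950377-67954058), which overlapped. The log2 difference was 0.071 (SE 0.10, 95% interval -0.14 to 0.28). The adjusted p in limma was 0.991 for Insr and 0.850 for Igf1r.

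Among ErbB receptors, Erbb4 had the highest level in CtrlCre CMs, at 87.6 ± 1.0 normalized counts per kb of peak (SD, n = 3), followed by Erbb2 at 74.6 ± 12.3, Erbb3 at 61.5 ± 2.5 and Egfr at 43.2 ± 13.3. Library values of Erbb2 and Erbb3 overlapped, so their order is open, while those of Erbb4 lay above and those of Egfr below both. Erbb4, the neuregulin receptor of CMs, gave 406, 400 and 397 normalized counts in CtrlCre and 372, 405 and 372 in Cpt1bcKO libraries (chr1:69104252-69108828). Values overlapped through Cpt1bcKO replicate 2, and the log2 difference was -0.067 (SE 0.092, 95% interval -0.26 to 0.12) with an adjusted p of 0.845 in limma. The peak also holds the start of the gene Gm16076.

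Erbb2, the partner of ErbB4 that binds no ligand of its own, varied between the Cpt1bcKO libraries. Its peak of 1126 bases (chr11:98412157-98413283) had 93, 91 and 68 normalized counts in CtrlCre and 120, 73 and 122 in Cpt1bcKO libraries. Both Cpt1bcKO replicates 1 and 3 lay above all CtrlCre libraries, while replicate 2 lay among them. The log2 difference was 0.29 (SE 0.18, 95% interval -0.079 to 0.67), with an adjusted p of 0.542 in limma. Leaving out Cpt1bcKO replicate 2 gave 0.54 and an adjusted p of 0.139 in limma, and leaving out CtrlCre replicate 3 gave 0.15.

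Erbb3, which lacks strong kinase activity and signals through its partners, had 72, 74 and 78 in CtrlCre and 63, 73 and 74 in Cpt1bcKO libraries (chr10:128589396-128590611), a log2 difference of -0.095 (SE 0.16). Egfr, the receptor of epidermal growth factor, had the lowest named ErbB peak, with 33, 56 and 35 in CtrlCre and 28, 43 and 37 in Cpt1bcKO libraries (chr11:16752143-16753100). The groups overlapped for both genes. At Egfr the counting error was 12.3% to 20.4% per library, and the 95% interval of the log2 difference reached from -0.72 to 0.37. A change of moderate size was thus not detectable in these libraries. The adjusted p in limma was 0.883 for Erbb3 and 0.862 for Egfr.

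FGF receptors came next. Fgfr1, the main FGF receptor of CMs, had a peak over 8 annotated transcript starts (chr8:25518620-25520084) with 123, 121 and 103 normalized counts in CtrlCre and 104, 99 and 129 in Cpt1bcKO libraries. The groups overlapped, and the log2 difference was -0.068 (SE 0.14, 95% interval -0.35 to 0.21). A smaller peak of 595 bases further upstream (chr8:25514863-25515458), which holds no transcript start, had 24, 30 and 34 against 26, 19 and 28, a log2 difference of -0.26 (SE 0.30, 95% interval -0.89 to 0.36). The adjusted p in limma was 0.903 and 0.803.

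**Figure D2:**
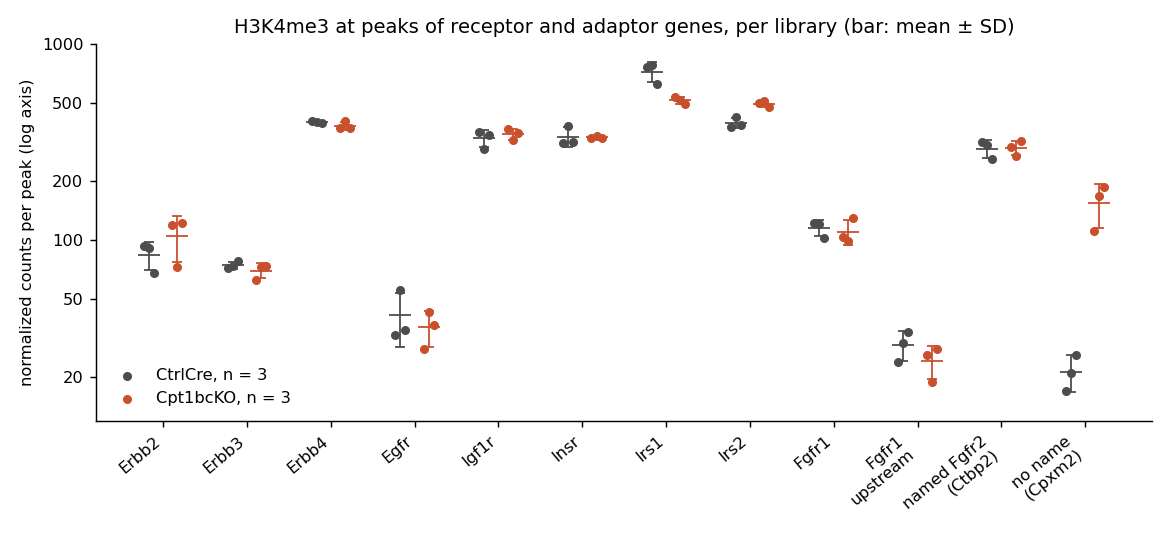
Normalized counts per peak on a log axis for the 12 peaks, as points for each library with the mean and SD of 3 CtrlCre (grey) and 3 Cpt1bcKO (orange) libraries. Irs1 lies lower and Irs2 higher in every Cpt1bcKO library, the peak without gene name rises from a mean of 21.3 to 155, and the other 9 peaks overlap between genotypes.

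The peak named Fgfr2 lies far from the known promoter of that gene. It spans chr7:133121512-133124629 and holds 14 transcript starts of Ctbp2, a transcriptional corepressor, but only 1 of Fgfr2, that of Fgfr2-217. This transcript spans 2960900 bases (chr7:130162451-133123350) and has support level 5, the weakest class of the GENCODE annotation (vM21), whereas the others of 27 annotated Fgfr2 transcripts all end at or before position 130266263. The start of Fgfr2-217 is 2857 kb away from that of the principal Fgfr2 transcripts. Values of the peak were 316, 305 and 258 in CtrlCre and 297, 270 and 319 in Cpt1bcKO libraries, a log2 difference of 0.014 (SE 0.10, adjusted p = 0.981 in limma). Because of its place, this signal cannot be ascribed to Fgfr2 rather than Ctbp2.

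The start of the principal Fgfr2 transcripts lay instead under a peak to which the deposited table gives no gene name (chr7:130264844-130266722). It was chosen by position after values had been seen and gave 72, 77 and 61 normalized counts in CtrlCre and 57, 49 and 89 in Cpt1bcKO libraries. The groups overlapped, and the log2 difference was -0.15 (SE 0.20, 95% interval -0.57 to 0.27). At 37.3 ± 4.4 normalized counts per kb in CtrlCre libraries (SD, n = 3) this level was below the 94 ± 9.9 of the peak with the name Fgfr2.

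The peak without gene name (chr7:132067889-132071086) had 17, 21 and 26 normalized counts in CtrlCre and 111, 168 and 186 in Cpt1bcKO libraries. All Cpt1bcKO values exceeded all CtrlCre values, with a fitted log2 difference of 2.79 (SE 0.22), and its level per kb in Cpt1bcKO, 48.5, came near that of the Irs1 peak in the same libraries, 49.8. It lies within Cpxm2, the gene of a carboxypeptidase-like protein, with 97.2% of its bases in intron and 2.78% in coding exon. Fgfr2 covers it through an intron of Fgfr2-217 alone, and the start of the principal Fgfr2 transcripts is 1802 kb away. The nearest transcript start of any gene is 8026 bases from it, and the first base of Cpxm2, its outermost start, is 83653 bases away. Its sequence differed in composition from those of the named peaks, with 0.657 CpG dinucleotides per 100 bases against 2.45 to 9.91 in the 11 named peaks, and repeats made up 31.6% of its bases. No value here ties this peak to Fgfr2.

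**Figure D3:**
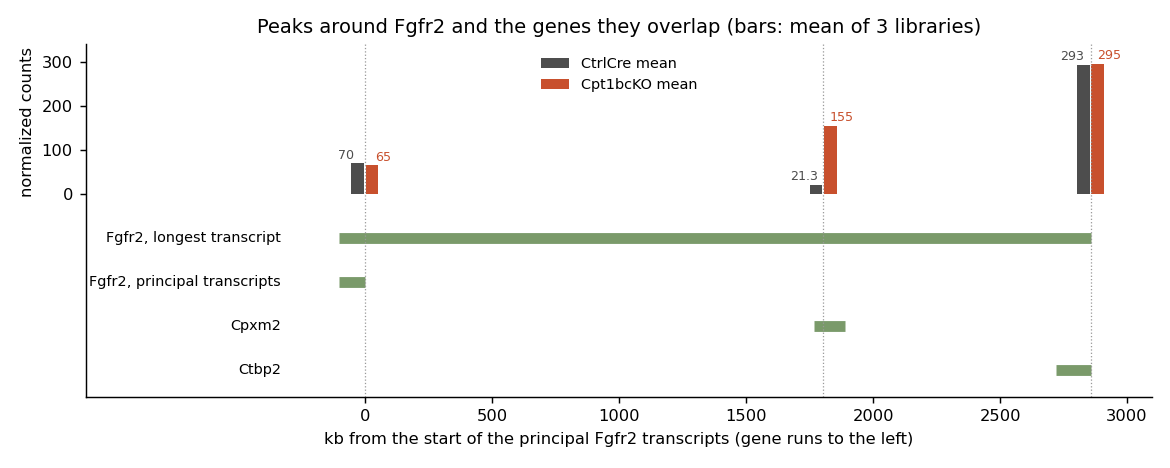
Mean normalized counts of 3 CtrlCre (grey bars) and 3 Cpt1bcKO (orange bars) libraries at 3 peaks, placed by their distance in kb from the start of the principal Fgfr2 transcripts, above the extent of Fgfr2-217, the principal Fgfr2 transcripts, Cpxm2 and Ctbp2 (green). The bar that grows from 21.3 to 155 stands inside Cpxm2, 1802 kb from the principal start, and the peak with the name Fgfr2 stands at the start of Ctbp2.

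Across the 12 peaks, breadth and level varied widely. Peaks of Irs1, Irs2, Insr, Erbb4, Igf1r and the one named Fgfr2 were wider than 2222 bases, the 75th percentile of tested peaks, Egfr and the upstream Fgfr1 peak were narrower than 1030 bases, the 25th percentile, and 3 lay between. Irs1 was wider than 99.7% and Irs2 wider than 99.5% of all tested peaks. Per kb of peak, however, they were not high, at 69.6 ± 8.0 for Irs1 and 43.9 ± 2.7 for Irs2 in CtrlCre libraries (SD, n = 3 each), and the median of all tested peaks over both genotypes was 60.5.

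In order of the level per kb in CtrlCre libraries, the peak named Fgfr2 (94) and Igf1r (89.9) came first, then Erbb4 (87.6), Fgfr1 (79), Erbb2 (74.6), Irs1 (69.6), Erbb3 (61.5), Insr (60.3), the upstream Fgfr1 peak (49.3), Irs2 (43.9) and Egfr (43.2), and the peak without gene name (6.67) stood last. Neighbours in this order overlapped in their library values except Erbb4 over Fgfr1 and Egfr over the peak without gene name. CpG content differed among the wide peaks. Irs1 had 3.49 and Insr 2.45 CpG dinucleotides per 100 bases, under the median of 4.86 of all tested peaks, and Igf1r had 9.51.

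**Figure D4:**
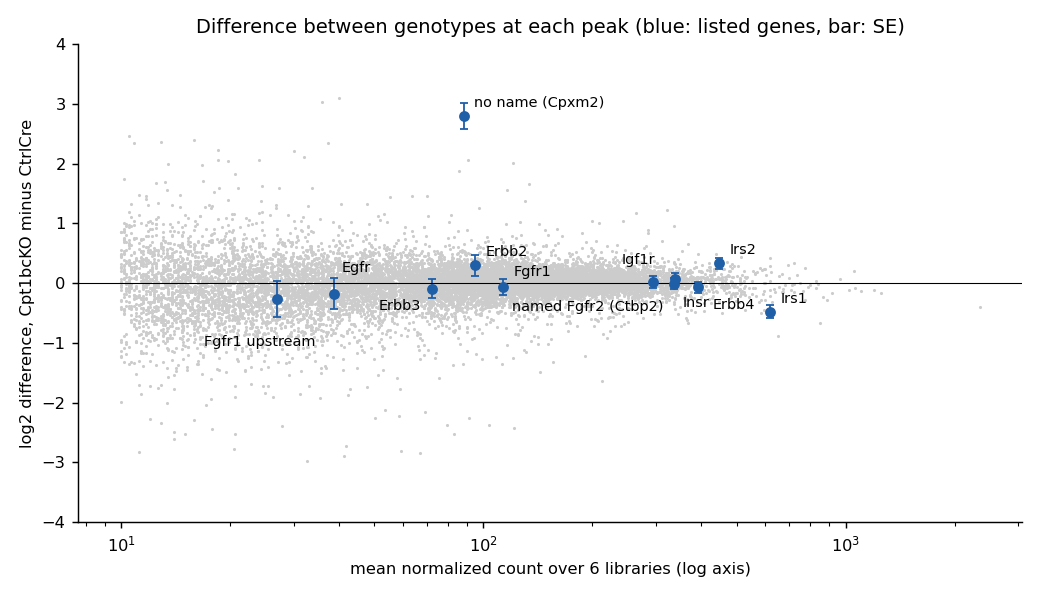
Log2 difference of Cpt1bcKO minus CtrlCre against the mean normalized count over 6 libraries (log axis) for all 15039 tested peaks (grey) and the 12 peaks described here (blue, bars are SE). Irs1 (-0.48) and Irs2 (0.33) lie on opposite sides of 0, the peak without gene name lies at 2.79, and the others lie between -0.26 and 0.29.

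Within the genes, outside the starts of the principal transcripts, lay 6 further peaks without gene name, and 5 of them were tested. They were chosen by position after values had been seen, so they are described without a test. The highest was in an intron of Igf1r (chr7:68128662-68131337), with 116, 121 and 111 normalized counts in CtrlCre and 98, 98 and 93 in Cpt1bcKO libraries, a log2 difference of -0.27 (SE 0.13). A peak deep in an intron of Erbb4 (chr1:68503447-68505148) had 53, 33 and 43 against 24, 22 and 19, the largest difference of the 5 at -0.94 (SE 0.28), and a second one nearer to the start of Erbb4 had 29, 35 and 42 against 17, 34 and 29. An intronic Insr peak (chr8:3219946-3221819) had 41, 37 and 41 against 29, 32 and 32, a log2 difference of -0.35 (SE 0.25). Genotypes did not overlap at the Igf1r peak, the far Erbb4 peak and the Insr peak, that is at 3 of 5, against 16.3% of all tested peaks.

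Only the peak inside Erbb3 had a higher mean in Cpt1bcKO, at 45, 33 and 45 against 29, 49 and 52. It lies 726 bases from the nearest annotated transcript start. The median log2 difference of the 5 was -0.35. Across the genome, of 2184 tested peaks that carry no gene name and hold no transcript start, 62.4% were lower in Cpt1bcKO, with a median log2 difference of -0.12, against 48.8% of all tested peaks.

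The wider pathway was read from a list of 122 other genes, of which 102 had a tested peak, using the peak of a gene that had the highest mean. None was called higher and 3 were called lower in Cpt1bcKO CMs at an adjusted p under 0.05 in limma, against 0.967% and 1.26% of all 11067 genes. Higher and lower in the counts of genes refer to the sign of the fitted log2 difference. At an unadjusted p under 0.05, 11 were higher and 10 were lower, together 21 of 102 against 11.3% of all genes. The median log2 difference was 0.0094, and over all genes 0.020. Limma-voom on recovered counts called 2 of them, both lower.

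Ligands held 2 of the 3 calls. Fgf2, a ligand of FGF receptors also known as basic FGF, had 92, 116 and 70 normalized counts in CtrlCre and 49, 40 and 43 in Cpt1bcKO libraries. All Cpt1bcKO values were below all CtrlCre values. This amounted to -1.03 on the log2 scale (SE 0.20, adjusted p = 0.00286 in limma), and the call held in each of 13 alternatives. It was the only call among 8 tested genes of 11 FGF family members on the list, of which 5 were lower and 3 higher.

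Igf1, the ligand of the IGF1 receptor, fell from 83, 151 and 121 in CtrlCre to 53, 79 and 79 in Cpt1bcKO libraries, which did not overlap. This amounted to -0.72 on the log2 scale (SE 0.19, adjusted p = 0.0390 in limma). The call was lost without any single library but CtrlCre replicate 1, with adjusted p values in limma of up to 0.257 (without Cpt1bcKO replicate 1), with quantile normalization (0.0533) and with limma-voom on recovered counts (0.135). The other 2 tested genes of the IGF group, Igfbp5 (log2 difference -0.075) and Igfbp7 (-0.037), were not called. Igf1 is known to be expressed by fibroblasts and macrophages of the heart. For Igf1, as for Fgf2 and Irs1, the summed markers of other cell types were lower in the same libraries (253 to 331 in CtrlCre and 146 to 195 in Cpt1bcKO). Without Acta2 these sums overlapped (156 to 212 and 132 to 171). Summed CM markers also tended lower, with overlap (8477 to 10118 and 6723 to 9392). The part of the mixture of cells in these differences was not tested.

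Among 7 tested ligands of the EGF family, 5 were higher and 2 lower, and none was called, with 1 at an unadjusted p under 0.05 in limma. Tgfa, a ligand of the EGF receptor, had the smallest p, with 46, 46 and 52 in CtrlCre and 62, 63 and 83 in Cpt1bcKO libraries, a log2 difference of 0.51 (SE 0.19) and an adjusted p of 0.211 in limma. Of other receptors on the list, 4 of 7 were tested, 2 were higher and 2 lower, none was called, and Fgfr3, the 1 with an unadjusted p under 0.05 in limma and another FGF receptor, had a log2 difference of 0.37 (SE 0.18) and an adjusted p of 0.373 in limma.

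Downstream of the receptors, no gene of the adaptors, the RAS–MAPK cascade or the PI3K–AKT–mTOR cascade was called, while 2, 3 and 5 of them had an unadjusted p under 0.05 in limma. Among 15 tested adaptors, 9 were higher and 6 lower. Shc1, which links receptors to RAS, had 132, 114 and 122 in CtrlCre and 158, 167 and 159 in Cpt1bcKO libraries without overlap, a log2 difference of 0.39 (SE 0.11) and an adjusted p of 0.0603 in limma. In the RAS–MAPK cascade 7 of 11 tested genes were higher, and Ksr1, a scaffold of that cascade, had 89, 98 and 90 against 62, 63 and 64, a log2 difference of -0.54 (SE 0.15, adjusted p = 0.0573 in limma). In the PI3K–AKT–mTOR cascade 11 of 24 were higher and 13 lower, with the smallest p at Gsk3b, a kinase inhibited by AKT (log2 difference 0.27, SE 0.11, adjusted p = 0.302 in limma).

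Negative regulators gave the remaining call. Socs3, which attenuates cytokine and insulin signalling, had 137, 170 and 177 normalized counts in CtrlCre and 122, 98 and 118 in Cpt1bcKO libraries. The genotypes did not overlap, and the difference was -0.51 on the log2 scale (SE 0.13, adjusted p = 0.0277 in limma). Without CtrlCre replicates 2 or 3 or Cpt1bcKO replicates 2 or 3 the call was lost, with adjusted p values in limma of 0.0635, 0.138, 0.166 and 0.0707. Of 30 tested negative regulators, 17 were higher and 13 lower. Dusp4, a phosphatase of MAP kinases singled out after its values were seen, had 129, 153 and 155 in CtrlCre and 223, 159 and 221 in Cpt1bcKO libraries, a log2 difference of 0.45 (SE 0.13, adjusted p = 0.0575 in limma). It was called higher without CtrlCre replicate 2 and without Cpt1bcKO replicate 2.

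**Figure D5:**
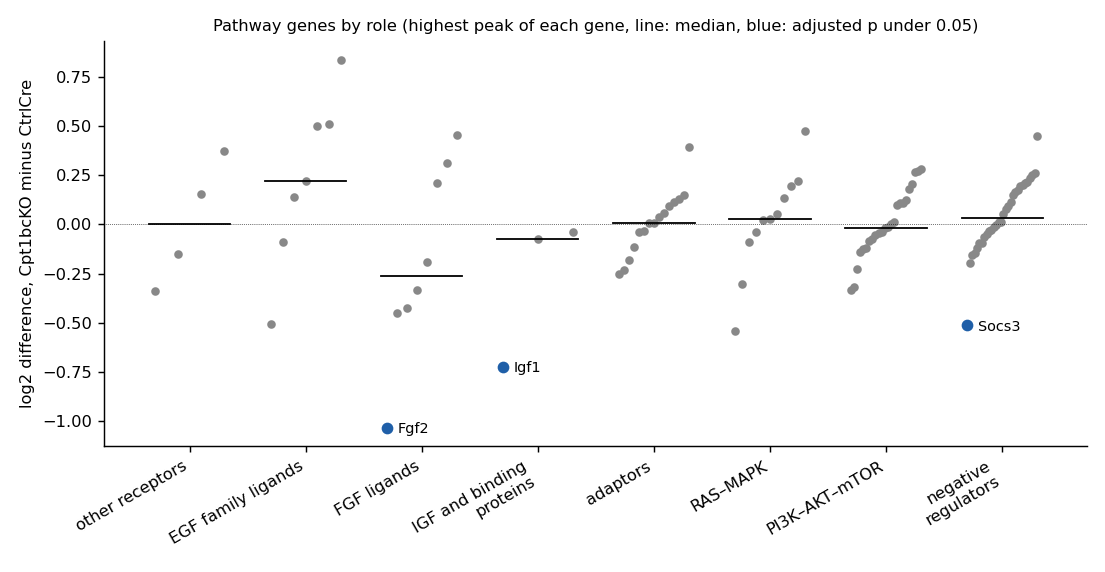
Log2 difference of Cpt1bcKO minus CtrlCre for the highest peak of each of 102 pathway genes, grouped by role, with the median of each role as a line and genes with an adjusted p under 0.05 in blue. The 3 blue points are Fgf2 (-1.03), Igf1 (-0.72) and Socs3 (-0.51), all lower, and the medians of the roles lie between -0.26 and 0.22. The group labelled FGF ligands holds the FGF family members on the list, not all of them receptor ligands.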

How the data were processed

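H3K4me3 was measured by ChIP–seq in 6 libraries, 3 per genotype, grouped and numbered by their titles. The authors trimmed reads with Trimmomatic 0.39, aligned them to mm10 with STAR 2.6.1d, removed duplicates with Picard 2.21.7, called peaks over input with MUSIC (false discovery rate 0.2), merged them over libraries and assigned gene names to promoters within 5000 bases. The deposited values are normalized counts that the authors divided by DESeq2 size factors and rounded, used as a score. A deposited mean signal of each genotype was not rounded and served to recover the whole counts, which had a single solution at 15848 of 15848 peaks. Deposited fold changes and p-values of the authors' own comparison were not used. Size factors set the bulk of peaks to no change, so a shift common to all peaks is not visible. The paper reports a lower total H3K4me3 level in Cpt1bcKO CM nuclei by western blot. Higher, lower and unchanged here are therefore relative to the bulk of peaks.

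Peaks with a mean of at least 10 (15039) were tested with limma 3.58.1 in R 4.3.3 (lmFit, eBayes, trended variance), applied to log2(value + 1), with genotype alone, two-sided, with Benjamini–Hochberg adjustment over all of them. Log2 differences are on that scale, which understates changes of low peaks. Intervals are 95% intervals of the fit. If 1 recovered count is 1 read, 3 reads correspond to 1.95 to 6.97 normalized counts. The paper obtained its peak counts with bigWigAverageOverBed, and whether 1 count is 1 read was not tested. Counting errors rest on that assumption and cover counting only. Members, lists and tests were chosen with earlier results of these data known. Named in the text are all members, every pathway gene with an adjusted p under 0.05, and the gene with the smallest p in each role without one. Gene positions come from GENCODE vM21 and sequences from RefSeq, both on GRCm38. The fit was tested on simulated data. Alternatives were another pseudocount, other filters, scalings and models, each library left out, and the replicate number as a block. Labels do not say that libraries came from separate animals, so p-values measure the spread between these samples. A marker of the lists is not reported here.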

Additional observations from a re-analysis of the deposited data

How the results depend on the processing

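Depth limited the low peaks most, those of Egfr and upstream of Fgfr1. The number of tested peaks with an adjusted p under 0.05 in limma was 441, between 338 and 503 under 7 other settings, and 1929 at an unadjusted p under 0.05. Of the 11 named peaks, 1 (Irs1) was called, and 2 (Irs1 and Irs2) with quantile normalization, with limma-voom on recovered counts and at an unadjusted p under 0.05. Leaving out each library in turn gave 229 to 431 peaks in all, 0 to 2 named member peaks and 1 to 3 pathway genes. The pathway genes called then changed, with Dusp4 (higher) called without CtrlCre replicate 2 or Cpt1bcKO replicate 2 and Fgf13 (lower) without Cpt1bcKO replicate 2, and Fgf2 was the only one called in every case. The direction turned with limma-voom at Insr (0.019) and Egfr (0.028), and with 1 library left out at Insr (-0.061 to 0.089), Igf1r (-0.014 to 0.13), the peak named Fgfr2 (-0.075 to 0.076), the Fgfr1 promoter (-0.18 to 0.0065) and Egfr (-0.31 to 0.060), all without a call, and the cause was not tested. Irs1 stayed lower (-0.58 to -0.42) and Irs2 higher (0.29 to 0.38) whichever library was left out. Same-numbered libraries did not deviate together (correlations of 0.076, -0.081 and 0.11 for numbers 1 to 3). So few values cannot settle whether the numbers are a pairing. The paper used littermates as controls, and the labels name no pairs. A fit with a block for replicate numbers called 370 peaks, 1 named member peak (Irs1, adjusted p = 0.0340 in limma) and 3 pathway genes. The difference of the log2 ratio of Irs1 to Irs2 lay between -0.89 and -0.73 when a library was left out, a check chosen after the values had been seen.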
